A study of Mus musculus with 3 samples.

Results

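The genes described here are those that carry cytosine arabinoside (AraC, cytarabine) into cells, activate it and inactivate it: 3 nucleoside transporters, 2 kinases, 2 deaminases and 3 enzymes that remove phosphate. They were chosen by gene symbol from known roles, at a time when earlier results of these data were known. A probe set was taken where the platform's probe table gave it that symbol and no other. All 10 genes were measured, by 11 of the 41345 probe sets on the array, out of 22180 genes that have a probe set of their own. The samples were 3 biological replicate cultures of wild-type CD-1 mouse cells from the medial ganglionic eminence (MGE), the embryonic ventral forebrain region that gives rise to many cortical interneurons, taken at embryonic day 13. All 3 cultures had FGF2 at 40 ng/ml and were plated at 59000 cells per square centimetre on laminin and poly-D-lysine. On day 5 all 3 received 1 µM AraC, which kills dividing cells, and after 24 h it was washed out by changing the medium 3 times at intervals of 2 h, and RNA was taken after a further 2 days. The 3 cultures form 1 group with no untreated culture, so these values show which genes gave signal and how far the cultures differed, and no change caused by AraC can be read from them.

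AraC is an analogue of deoxycytidine and is inert until phosphorylated. It enters through nucleoside carriers, is converted stepwise inside the cell to the triphosphate AraCTP, and AraCTP is built into DNA during replication, where it hinders further extension and kills cells in S phase. Deaminases turn AraC and its monophosphate into uracil forms that no longer do this, and other enzymes take phosphate off again. Most of these roles are known from human cells, above all from leukaemia treatment. In postmitotic neurons deoxynucleotide salvage serves mitochondrial DNA and repair.

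Sequence upstream of the annotated start is shown for 4 members from both outcomes of the signal test. Dck and Cmpk1 (activation) and Samhd1 (loss of the active form) gave signal, and Slc28a3 (uptake) did not. No deaminase is shown. Each run holds the 250 bases before the start on the gene's own strand, from RefSeq with build GRCm38.p6, with CG dinucleotides in capitals because clusters of them mark the promoters of broadly used genes. The windows are chr5:88764763-88765012 on the plus strand for Dck, chr4:114987229-114987478 on the minus strand for Cmpk1, chr2:157135097-157135346 on the minus strand for Samhd1 and chr13:58610878-58611127 on the minus strand for Slc28a3.
Dck: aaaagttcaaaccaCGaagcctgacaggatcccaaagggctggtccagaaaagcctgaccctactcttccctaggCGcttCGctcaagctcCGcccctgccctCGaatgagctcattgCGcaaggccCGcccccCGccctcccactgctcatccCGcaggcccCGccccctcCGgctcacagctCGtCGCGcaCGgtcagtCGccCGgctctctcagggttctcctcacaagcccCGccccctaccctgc
Cmpk1: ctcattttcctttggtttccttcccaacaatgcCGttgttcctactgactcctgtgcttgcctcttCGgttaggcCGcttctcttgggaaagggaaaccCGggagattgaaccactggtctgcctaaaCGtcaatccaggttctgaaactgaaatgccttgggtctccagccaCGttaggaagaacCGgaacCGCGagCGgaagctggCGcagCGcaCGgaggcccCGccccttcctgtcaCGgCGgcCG
Samhd1: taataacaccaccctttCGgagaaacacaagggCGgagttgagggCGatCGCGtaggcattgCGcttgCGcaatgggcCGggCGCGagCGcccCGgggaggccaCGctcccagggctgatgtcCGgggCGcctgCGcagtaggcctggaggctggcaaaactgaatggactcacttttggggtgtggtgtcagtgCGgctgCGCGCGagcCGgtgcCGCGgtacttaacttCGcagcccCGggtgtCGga
Slc28a3: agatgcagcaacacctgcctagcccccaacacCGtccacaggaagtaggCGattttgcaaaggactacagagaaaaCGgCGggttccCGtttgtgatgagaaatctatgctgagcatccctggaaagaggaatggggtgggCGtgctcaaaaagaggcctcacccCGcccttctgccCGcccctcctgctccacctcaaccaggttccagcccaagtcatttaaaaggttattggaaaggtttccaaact
Samhd1 had 26 CG dinucleotides, Dck 18, Cmpk1 17 and Slc28a3 8, against a median of 6 (quartiles 2 and 16) over 32851 such windows of 27025 mouse genes. Of all windows 92.1% held at least 1 CG. The GC box, GGGCGG or CCGCCC on the other strand, which contains a CG itself, occurred 5 times before Dck, 2 times before Slc28a3 and once each before Cmpk1 and Samhd1, and 32.7% of all windows held it. So the member without signal also lay above the median in CG and carried the motif. Of the 7 members with a single such window, 6 lay above the median in CG and 6 carried the motif. Among these 7, those shown with signal were the richest in CG. Slc29a2 with 16, Cda with 14 and Nt5c3 with 5 are not shown, and all of them were above background. These counts describe the letters in these windows and say nothing of which factors bind there.

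The values are log2 signals of 1 array per culture and are given as the mean ± SD over n = 3 cultures. A gene counted as above background where its mean exceeded 6.26 log2 units at an adjusted p under 0.05. That line is the 95th percentile of 1440 probe sets for receptors of the olfactory, vomeronasal and bitter taste systems, whose sensory cells lie outside this tissue (limma, 1-sided, Benjamini-Hochberg over 22081 probe sets). Probe sets bind with different strength, so a gene is set against the line and against itself in the other cultures, and never against another gene. Of all 20751 genes tested, 63.4% were above background, and with the line raised by 1 log2 unit 47.6% were.

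Of the 10 AraC handling genes 9 were above background, and 7 were with the line raised by 1 log2 unit. Slc28a3 was the one without signal above the line, and Slc29a1 and Cda were the others that did not clear the raised line. The median of the 10 gene means was 8.66 log2 units and that of all genes tested 7.34, which describes the probe sets and is no comparison of expression. Both kinases, both deaminases, all 3 phosphate-removing enzymes and 2 of the 3 carriers passed. For 6 genes (Slc29a2, Dck, Cmpk1, Dctd, Samhd1 and Nt5c2) only 1 of the 1440 receptor probe sets had a higher mean.

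**Figure D1:**
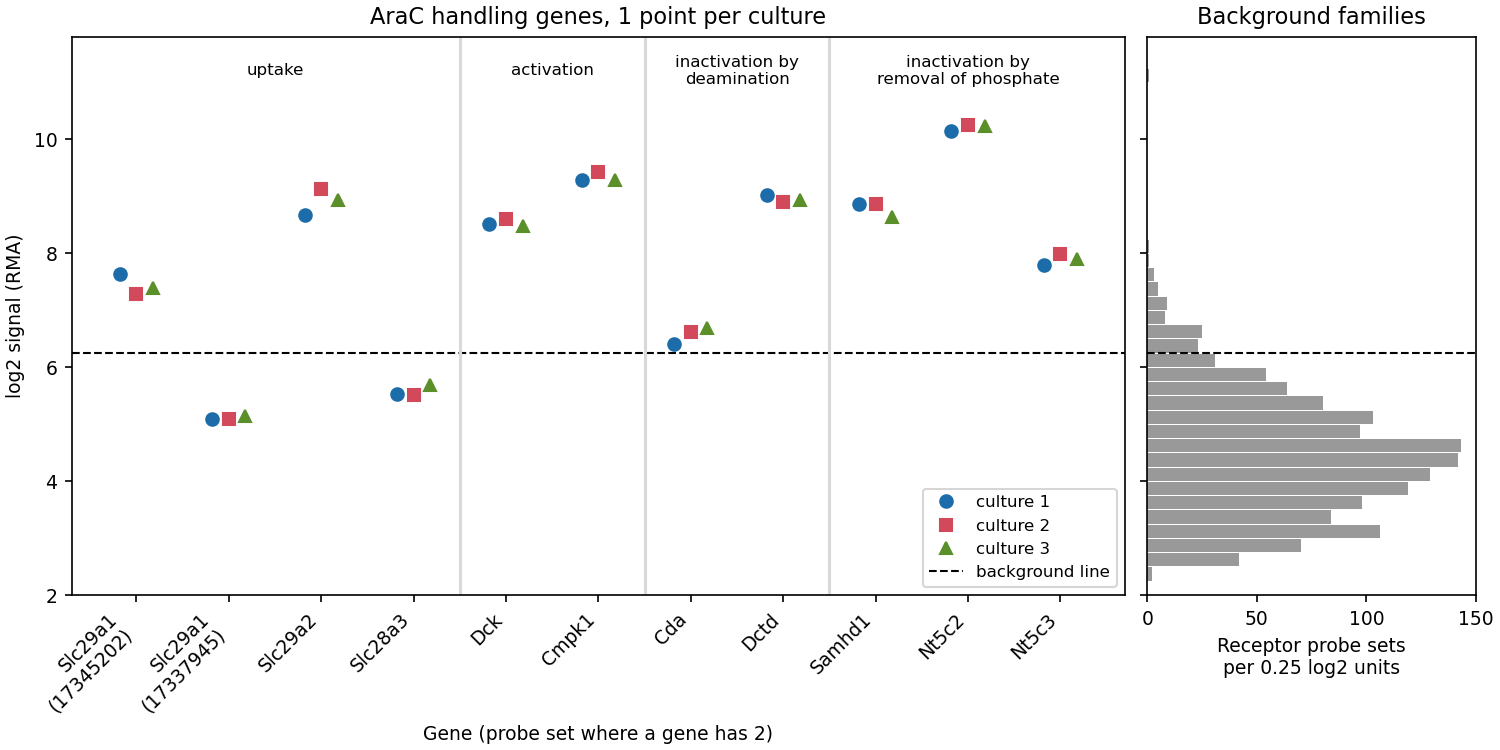
Log2 signal (y axis) of each AraC handling probe set in the 3 cultures, grouped by role, with the distribution of 1440 receptor probe sets at the right (x axis, probe sets per 0.25 log2 units). The dashed line is the background line at 6.26, and Slc28a3 and 1 of the 2 Slc29a1 probe sets lie below it in all 3 cultures.

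Uptake genes differed from each other in whether they gave signal. Slc29a1 encodes ENT1, the equilibrative carrier through which most AraC is known to enter human cells. Its probe set 17345202 read 7.63 in culture 1, 7.29 in culture 2 and 7.40 in culture 3, a mean of 7.44 ± 0.17 (95% confidence interval 7.21 to 7.67, limma adjusted p = 0.000135). All 3 cultures lay above the line, with culture 1 the highest.

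The other Slc29a1 probe set, 17337945, read 5.10, 5.09 and 5.15 in cultures 1, 2 and 3, below the line in each (5.12 ± 0.03, limma adjusted p = 1). The 2 probe sets of this gene thus gave opposite answers, and 366 of the 1440 receptor probe sets had a higher mean than the second. With their mean (6.28) in place of the higher one, Slc29a1 was not above background (limma adjusted p = 0.584). Slc29a1 lies on the minus strand. In order of probe set number, 17345202 sits among genes of the same strand, as 15 of its 15 neighbours with a known strand on that chromosome do. For 17337945, 15 of 16 such neighbours are genes of the plus strand, which was not so for any other member's probe set. This order was looked up after the values were seen, and which strand the second set reads was not tested.

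Slc29a2 encodes ENT2, the second equilibrative carrier of the plasma membrane. It read 8.68 in culture 1, 9.13 in culture 2 and 8.93 in culture 3, a mean of 8.91 ± 0.23 (limma adjusted p = 1.5e-05). Culture 1 was the lowest and culture 2 the highest, the opposite of Slc29a1. Its range of 0.45 log2 units was the widest among the 10 genes.

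Slc28a3 encodes CNT3, a sodium-coupled carrier that concentrates purine and pyrimidine nucleosides in the cell. It read 5.53, 5.52 and 5.69 in cultures 1, 2 and 3, below the line in all of them. Its mean was 5.58 ± 0.10, with a 95% confidence interval of 5.41 to 5.75 that ends below the line, and 208 receptor probe sets had a higher mean. No alternative setting put it above background.

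Activation genes gave signal in every culture. Dck, deoxycytidine kinase, adds the first phosphate to AraC, the step that limits activation. It read 8.52, 8.61 and 8.48 in cultures 1, 2 and 3 (8.53 ± 0.07, limma adjusted p = 3.7e-06). Cmpk1, the UMP-CMP kinase, adds the second phosphate. It read 9.28, 9.42 and 9.28 (9.33 ± 0.08, limma adjusted p = 2.02e-06). For both genes culture 2 was the highest and all 3 cultures lay within 0.14 log2 units of each other.

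The deaminases differed from each other in how firmly they passed. Cda, cytidine deaminase, turns AraC itself into inactive uracil arabinoside. It read 6.41 in culture 1, 6.62 in culture 2 and 6.69 in culture 3, all above the line, with a mean of 6.57 ± 0.14 (95% confidence interval 6.37 to 6.78, limma adjusted p = 0.0112). That is 0.31 log2 units above the line, and 46 receptor probe sets had a higher mean. Without culture 2 the limma adjusted p was 0.135 and without culture 3 it was 0.0675, while without culture 1 it was 0.00763. At the 99th percentile of the receptor probe sets (7.10) Cda lay below the line.

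Dctd, deoxycytidylate deaminase, acts 1 step later, on dCMP and on the monophosphate of AraC. It read 9.02, 8.90 and 8.94 in cultures 1, 2 and 3 (8.96 ± 0.06, limma adjusted p = 2.27e-06). All 3 cultures lay far above the line and within 0.12 log2 units of each other.

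The phosphate-removing enzymes all gave signal. Samhd1 splits deoxynucleoside triphosphates, and AraCTP, back to the nucleoside. It read 8.86, 8.86 and 8.64 in cultures 1, 2 and 3 (8.79 ± 0.13, limma adjusted p = 5.17e-06), with culture 3 the lowest. Myeloid cells are known for high Samhd1, and interferon induces it in several cell types. Of 9 measured microglial markers 7 were above background, beside 63.4% of all genes, and 8 lay above the line in every culture. Those that passed were Cd68 (8.33 ± 0.20), Cx3cr1 (7.20 ± 0.24), C1qa (6.80 ± 0.18), C1qb (6.73 ± 0.23), Spi1 (6.57 ± 0.14), Aif1 (6.54 ± 0.11) and P2ry12 (6.48 ± 0.06). With the line raised by 1 log2 unit only the lysosomal gene Cd68 passed. Csf1r (6.36 ± 0.12), above the line in all 3 cultures, and Itgam (5.76 ± 0.15) were not called. The summed linear signal of the 9 was 1118, 1091 and 1107 in cultures 1, 2 and 3. Of 6 interferon response genes (Ifit1, Ifit3, Isg15, Irf7, Mx1 and Oas2) limma called 0, beside 63.4% of all genes. Of these 6, 1 had an unadjusted p under 0.05, and 0 were above the line in every culture. Ifit3 (6.78 ± 0.57, limma adjusted p = 0.0705) lay above the line in cultures 1 and 3 (7.04 and 7.17) and below it in culture 2 (6.13). Which cells the Samhd1 signal came from was not tested, and neither was any part of interferon in it. Fewer cells of a type cannot be told apart from less RNA per cell in any of these values.

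Nt5c2 encodes cN-II, a cytosolic nucleotidase that prefers purine monophosphates and is linked to resistance to nucleoside drugs in human leukaemia. It read 10.15, 10.25 and 10.24 in cultures 1, 2 and 3 (10.21 ± 0.05, limma adjusted p = 1.37e-06). Nt5c3 encodes cN-III, which takes the phosphate off pyrimidine monophosphates. It read 7.80, 7.99 and 7.90 (7.90 ± 0.09, limma adjusted p = 1.35e-05), with culture 1 the lowest. Neither gene had a culture near the line.

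The spread between cultures is given beside that of all genes, and the counts below are too few to set these genes apart. The median SD of the 10 genes, each by its probe set of highest mean, was 0.095 log2 units, beside 0.13 over all probe sets tested. The SD of 7 of them was below that median of all. At signals of 8 to 9 the median SD of all genes tested was 0.125, and at 9 to 10 it was 0.108. After median centring the median SD of the 10 was 0.117, and that of all probe sets is not given here. Of the 10, 0 spanned more than 1 log2 unit between cultures, and 1.29% of all genes tested did. Ranges ran from 0.10 (Nt5c2) to 0.45 (Slc29a2). The widest after Slc29a2 were Slc29a1 (0.34) and Cda (0.28).

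**Figure D2:**
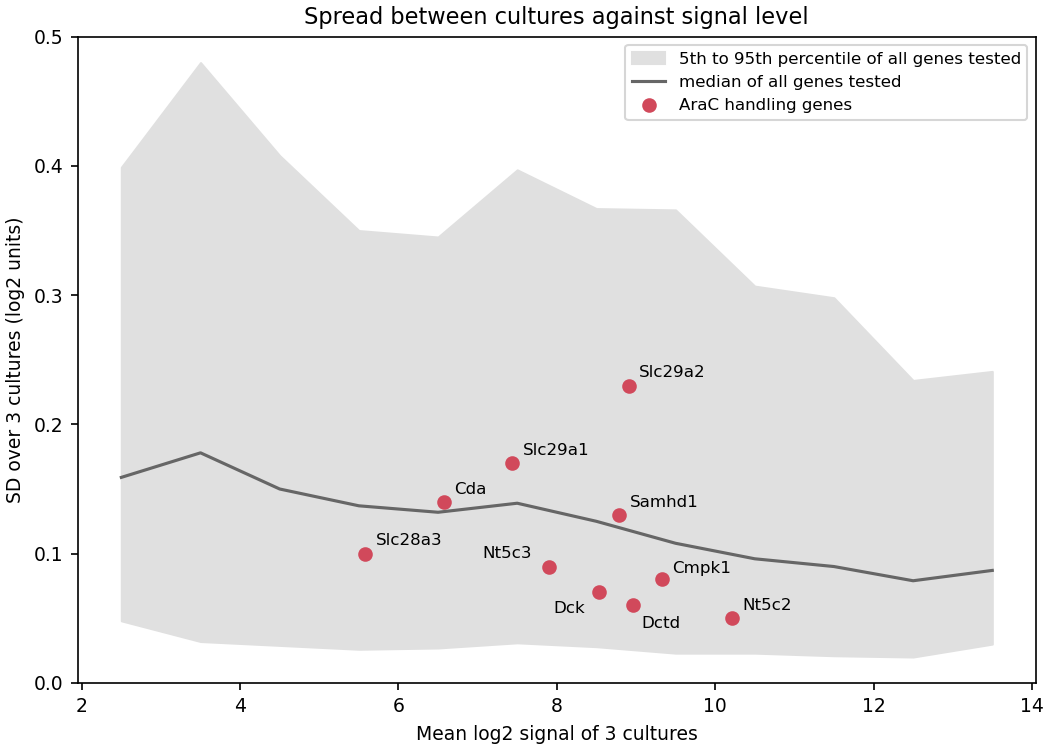
SD over the 3 cultures (y axis, log2 units) against the mean log2 signal (x axis) of each AraC handling gene, over the median (line) and the 5th to 95th percentile (band) of all genes tested in steps of 1 log2 unit. All 10 genes lie inside the band, and Slc29a2 has the widest spread, with an SD of 0.23.

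The arrays themselves were alike, with Pearson's r across all probe sets of 0.983 to 0.991 over the 3 pairs, the lowest being cultures 1 and 2. Markers of cells other than the labelled interneurons were above background too. All 8 neuronal and all 8 MGE interneuron markers were above background. So were 10 of 10 of dividing cells, 6 of 6 of neural progenitors, 5 of 6 of astrocytes and 5 of 5 measured markers of the oligodendrocyte lineage. With the line raised by 1 log2 unit these counts were 8, 8, 10, 5, 4 and 5. Markers of pericytes and fibroblasts (5 of 6) and of endothelium (4 of 6) passed too, but only 1 and 0 did with the raised line. Of all genes, 63.4% passed the line and 47.6% the raised line. The summed linear signal in cultures 1, 2 and 3 was 15183, 20104 and 18835 for the interneuron markers, 10914, 9155 and 9288 for dividing cells and 8801, 4898 and 6450 for astrocytes. Culture 1 was thus the lowest in interneuron markers and the highest in those of dividing cells and astrocytes.

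Beside these marker lists, the AraC handling genes did not follow 1 common order. The order with culture 1 highest and culture 2 lowest was found in Slc29a1 and Dctd and in 19.2% of all genes. The summed markers of astrocytes, dividing cells, neural progenitors, the oligodendrocyte lineage and microglia had that order too. The microglial sums hardly differed (1118, 1091 and 1107 in cultures 1, 2 and 3), with 3 genes highest in each culture. By median deviation the markers of dividing cells were lowest in culture 3 (0.17, -0.06 and -0.10 in cultures 1, 2 and 3). The order with culture 2 highest and culture 1 lowest, that of the summed interneuron markers, the summed neuronal markers and also the sum over all genes tested, was found in Slc29a2, Cmpk1, Nt5c2 and Nt5c3 and in 27.9% of all genes. In Slc29a1 the deviations from its own mean were 0.19, -0.15 and -0.04 in cultures 1, 2 and 3, and in Slc29a2 they were -0.23, 0.22 and 0.01. The median deviation was 0.48, -0.54 and 0.07 over the astrocyte markers and -0.21, 0.16 and 0.07 over the interneuron markers. Culture 2 was highest for 5 of the 10 genes and for 44.3% of all genes. Under quantile normalization and median centring these counts were 4 (42.9% of all genes) and 6 (54.6%). The whole order held under both scalings for 68.5% of all genes and for 5 of the 10 (Slc29a1, Slc29a2, Dck, Cda and Nt5c3), and for Cmpk1, Dctd, Samhd1, Nt5c2 and Slc28a3 it did not. The part of cell makeup in these differences was not tested.

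**Figure D3:**
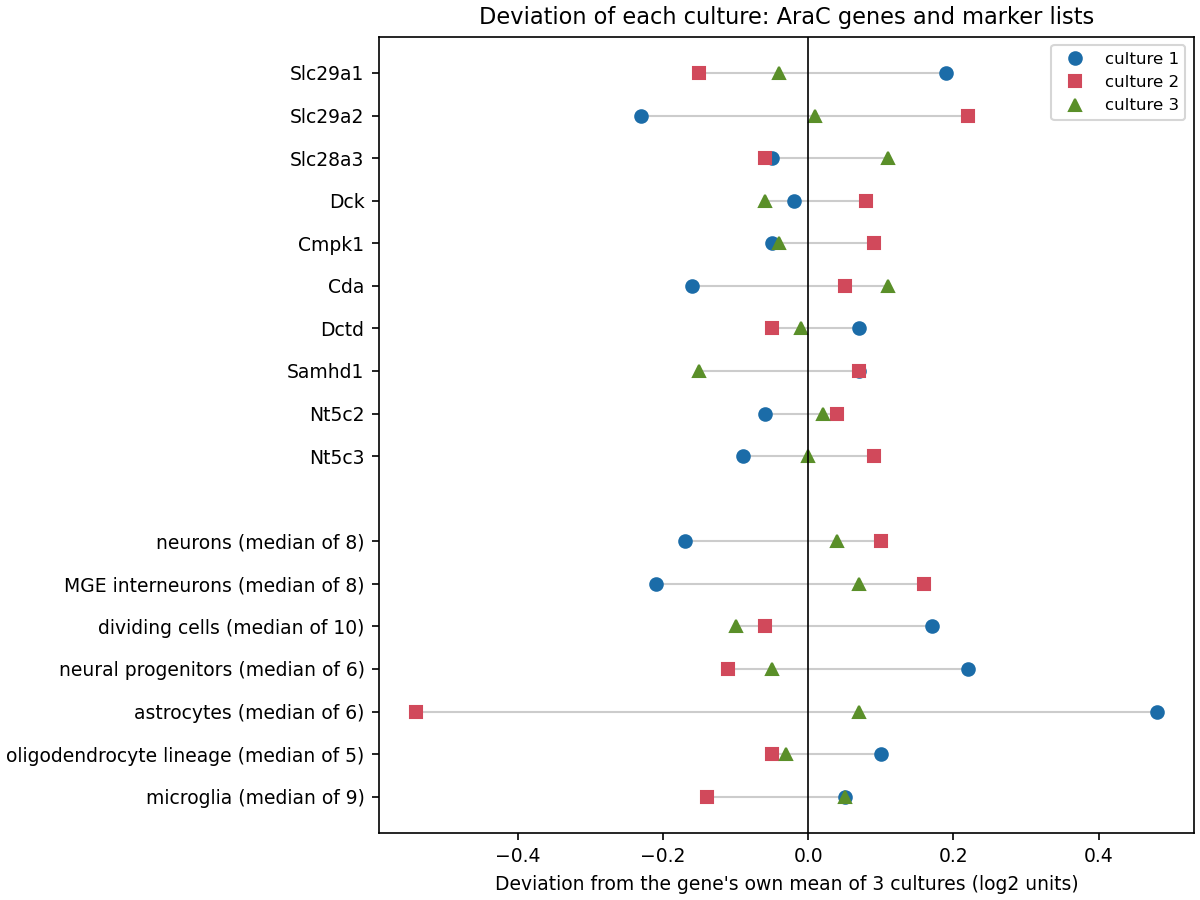
Deviation of each culture from a gene's own mean of 3 cultures (x axis, log2 units) for the 10 AraC handling genes and, below them, the median deviation of 7 marker lists. Slc29a1 and Slc29a2 deviate in opposite directions in cultures 1 and 2, and the astrocyte markers show the widest deviations.

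Other genes of nucleoside handling were mostly above background. Of 42 listed genes 39 were measured, and 31 of them passed, or 28 with the line raised by 1 log2 unit, beside the 63.4% and 47.6% of all genes. Among the 4 other carriers, Slc29a4 (10.21 ± 0.20), a carrier of monoamines and adenosine, and Slc29a3 (8.64 ± 0.15), an intracellular nucleoside carrier, were above background, though a second Slc29a3 probe set was not (5.90 ± 0.20). The concentrative carriers Slc28a1 (6.37 ± 0.20, limma adjusted p = 0.237) and Slc28a2 (6.23 ± 0.40, limma adjusted p = 0.836) were not, as was the case for Slc28a3. Both were lowest in culture 2, Slc28a1 at 6.14 and Slc28a2 at 5.79, and above the line in the other 2 cultures. Without culture 2, Slc28a1 passed (limma adjusted p = 0.0441).

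All 4 pumps that export nucleotide analogues passed, with Abcc5 (9.26 ± 0.01), Abcc4 (8.03 ± 0.26) and Abcc10 (7.70 ± 0.20) also above the raised line. All 12 other kinases measured passed both lines, which 63.4% and 47.6% of all genes passed. Among them were Uck2 (11.04 ± 0.02), which phosphorylates uridine and cytidine, Dguok (10.14 ± 0.03), the mitochondrial kinase of purine deoxynucleosides, and Dtymk (9.78 ± 0.07), which acts on thymidine monophosphate. Nme1 (8.65 ± 0.12), a nucleoside diphosphate kinase of the kind that adds the third phosphate, was among them too, while Nme2 and Nme3 had no probe set of their own.

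The other nucleotidases split evenly, while 63.4% of all genes were above background. Nt5m (8.56 ± 0.12), the mitochondrial enzyme, Nt5c3b (8.51 ± 0.08), a relative of Nt5c3, and Nt5c (8.29 ± 0.13), the cytosolic deoxynucleotidase, were above background. Nt5e (6.20 ± 0.17), the ectoenzyme CD73, Nt5c1a (6.02 in each culture) and Nt5c1b (4.97 ± 0.10), nucleotidases of the cN-I type, were not. Pyrimidine breakdown genes were above background in 2 of 5 cases, beside the same 63.4% of all genes. Those that passed were Upp1 (7.41 ± 0.32), uridine phosphorylase, and Dpyd (6.95 ± 0.11), the first enzyme of uracil breakdown. The mean of Upp2, Dpys and Upb1 was 5.32, 4.80 and 5.96 log2 units.

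Genes that set the pool of natural deoxynucleotides, with which AraCTP competes, were above both lines in 8 of 8 cases. The shares of all genes above the 2 lines were 63.4% and 47.6%. Rrm1 (10.30 ± 0.14) and Rrm2 (9.55 ± 0.06) are subunits of ribonucleotide reductase, the latter made mainly in S phase, and Dctpp1 (9.40 ± 0.09) splits dCTP. Second probe sets of Rrm2 (4.47 ± 0.10) and of Dut (5.13 ± 0.19), which removes dUTP, lay below the line, while the first of Dut read 8.64 ± 0.10.

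**Figure D4:**
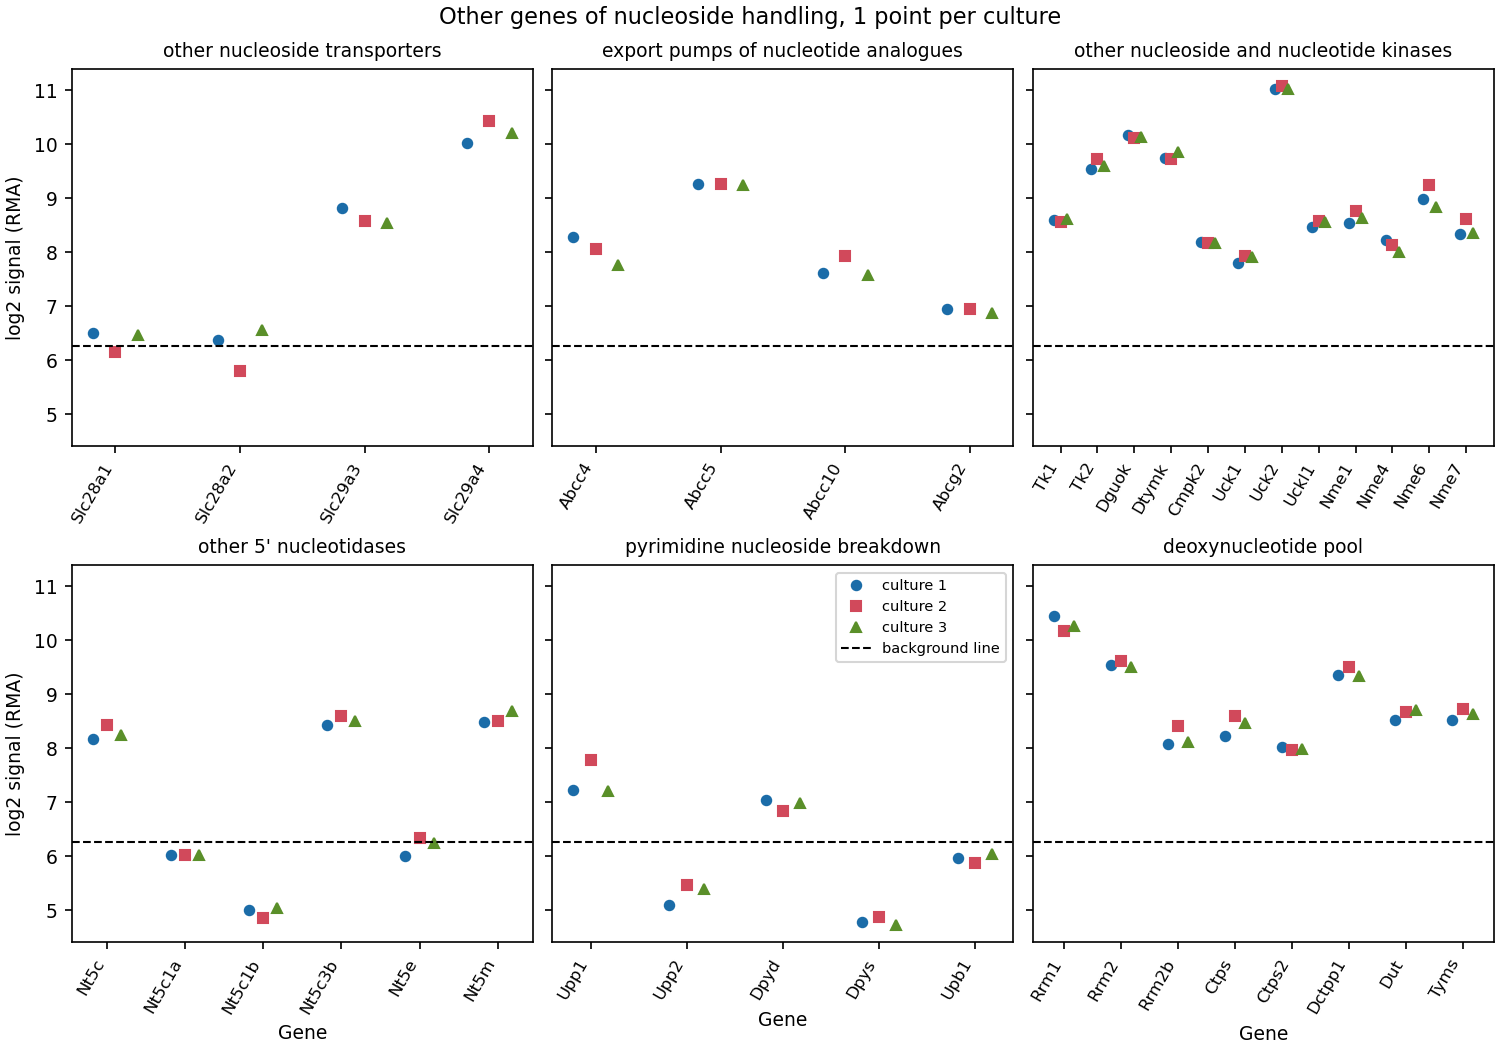
Log2 signal (y axis) of 39 other nucleoside handling genes in the 3 cultures, in 6 groups, with the background line (dashed) at 6.26. All kinases and all genes of the deoxynucleotide pool lie above the line in every culture, and Slc28a1 and Slc28a2 lie on both sides of it.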

How the data were processed

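RNA of 3 replicate cultures was labelled with biotin from 100 ng of total RNA and hybridized to 1-colour Affymetrix arrays. Each array gives 1 deposited log2 signal for every probe set. The submitters' processing notes name oligo and RMA, a method that subtracts background, brings arrays to a common distribution and summarizes probes. Versions and settings were not given in the sources used here. The signals ran from 2.07 to 13.9. Arrays give no read depth, and their number limits the precision. The platform's annotation gives 1 gene symbol to 23521 probe sets, several to 1814 and none to 16010, and 0 of the 1814 listed a gene studied here. All 10 gene identifiers matched RefSeq.

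With limma 3.58.1 in R 4.3.3 an intercept was tested against the background line, 1-sided, adjusted by Benjamini-Hochberg over 22081 probe sets. The prior had 2.13 degrees of freedom. Confidence intervals use limma's moderated variance. A gene with more than 1 probe set was called if 1 of them passed, and is given by the set of highest mean unless both are printed. The 12 alternatives to the call varied the line, the prior, the scaling, the probe set rule, the test and the cultures used. Genes and lists were chosen with earlier results of these data known. Of the other nucleoside genes, those named are all not called and up to 3 called with the highest mean in each group. Nme1, Nme2, Nme3, Cd68, Dut and the second probe sets of Rrm2, Dut and Slc29a3 were named after their values were seen. No genes were ranked by likeness of pattern, since 3 arrays give 3 points. Each p-value sets the distance of a mean from the line against limma's moderated spread between these 3 cultures. The line itself was taken as known without error.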

Additional observations from a re-analysis of the deposited data

How the results depend on the processing

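Of the 10 AraC handling genes 7 were above background under all 12 alternatives, and Slc28a3 under none. The share of all genes above background under all 12 is not given here, so the 7 cannot be set against it. The count above background was 9 with the deposited values and between 7 and 9 under the alternatives, with 9 without culture 1 and 8 without culture 2 or culture 3. It was 7 with a line from other families not expected in brain (181 probe sets, line at 7.22). Slc29a1 was not called with that line (limma adjusted p = 0.0647), with the raised line (0.105) or with the mean of its probe sets (6.28, 0.584). Cda, with a mean of 6.57, lay below the line at the 99th percentile, with the other families and with the raised line. Without culture 2 its mean was 6.55 (limma adjusted p = 0.135) and without culture 3 it was 6.52 (0.0675). Without culture 2 the line itself was 6.35, and without culture 1 Cda passed (0.00763); the cause of the lost calls was not tested. The other nucleoside genes above background numbered between 28 and 35 of 39. Of all 20751 genes tested, between 9880 (47.6%) and 15050 (72.5%) were above background. The alternatives for the spread between cultures were chosen after seeing the data and gave a median SD of 0.084 to 0.117. No paired analysis was possible because the 3 cultures form 1 group. Without untreated cultures, effects of AraC on these genes cannot be measured here.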
